A study of Drosophila melanogaster with 4 samples.

Results

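Broad domains of histone H3 dimethylated at lysine 27 (H3K27me2) are the regions of at least 10 kb in the list of enriched regions deposited for the whole series, taken on chromosomes 2L, 3L, 3R, X and 4. There were 525 of them among the 11772 regions of these 5 chromosomes, and 16728 regions in the list as a whole. The mark had been mapped by chromatin immunoprecipitation and sequencing (ChIP-seq) in nuclei from the heads of mixed adult flies of Oregon-R, a wild-type strain of Drosophila melanogaster, with the antibody Ab24684. The series holds 1 group of 2 ChIP replicates, each with its own input, and no mutant or treatment. Heads were pooled from population cages, so every value averages over the cell types of the head and over flies whose sex the labels do not give. Whether the replicates are separate collections is not in the labels, so their spread may be technical.

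H3K27me2 is made by Polycomb repressive complex 2, whose catalytic subunit in the fly is Enhancer of zeste. The same enzyme adds the third methyl group, and the trimethylated form marks silent developmental genes, among them the Hox genes. The dimethylated form is the more widespread of these states and lies over inactive genes and intergenic sequence, while actively transcribed genes tend to lack it. Because the mark spreads over long stretches of chromatin, the width of a called region is a basic property of its profile.

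The domains were chosen by their measured width in the series' list. That list was deposited for the series of these samples, and how it was made is not given. It holds nearly all of the sequence called in each replicate, so widths, scores, spacing and the cover by the replicates are given as descriptions, with no test. Positions are those of FlyBase release 5, and which genes lie in the domains was not analysed here.

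The domains were few but held a large part of the enriched sequence. They made up 4.38% of the regions of 2L, 5.85% of those of 3L, 5.58% of those of 3R, 1.45% of those of X and 4.17% of those of chromosome 4. Their 8403024 bp were 21.4% of all enriched bases on the 5 chromosomes. The shorter regions, 11247 in number, had a median width of 2025 bp, against 13497 bp for the domains. The lower and upper quartiles of the domain widths were 11419 and 17649 bp, so most domains lay close to the threshold. Widths of at least 15 kb were reached by 200 domains, of at least 20 kb by 88, of at least 30 kb by 24, of at least 50 kb by 6 and of at least 100 kb by 1. The 52 longest domains held 21.3% of all domain bases.

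The regions next to the threshold were these. The 3 narrowest domains measured 10008 bp (2L from 5962744), 10028 bp (3L from 1840349) and 10029 bp (3R from 5289787), with scores of 0.69, 0.57 and 0.58. The 3 widest regions that missed it were all on 3L and measured 9986 bp (from 24068513), 9985 bp (from 23521526) and 9979 bp (from 8322110), with scores of 0.73, 0.64 and 0.61. The replicates covered the first 3 to 74.1% ± 20.0, 54.9% ± 2.71 and 63.1% ± 40.8, and the other 3 to 89.2% ± 2.22, 65.7% ± 7.18 and 77.2% ± 28.3 (mean ± SD, n = 2). These 6 regions are a description of the threshold, and 3 on each side are too few to compare.

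X had far fewer domains per Mb than the autosomal arms but nearly as many shorter regions, and chromosome 4 had few of both. The left arm of chromosome 2 held 125 domains, or 5.43 per Mb. On 3L there were 177 (7.21 per Mb) and on 3R 184 (6.59 per Mb). X held 37, or 1.65 per Mb, and chromosome 4, the small dot chromosome, held 2 (1.48 per Mb). Shorter regions, in contrast, numbered 119 per Mb on 2L, 116 on 3L, 112 on 3R and 112 on X, and 34.0 on chromosome 4. Per Mb, X therefore carried 0.970 times as many shorter regions as the 3 autosomal arms together, 0.602 times as many regions of 5 to 10 kb, and 0.256 times as many domains. Domains filled 8.64% of 2L, 11.5% of 3L, 11.0% of 3R, 2.19% of X and 1.99% of chromosome 4.

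**Figure D1:**
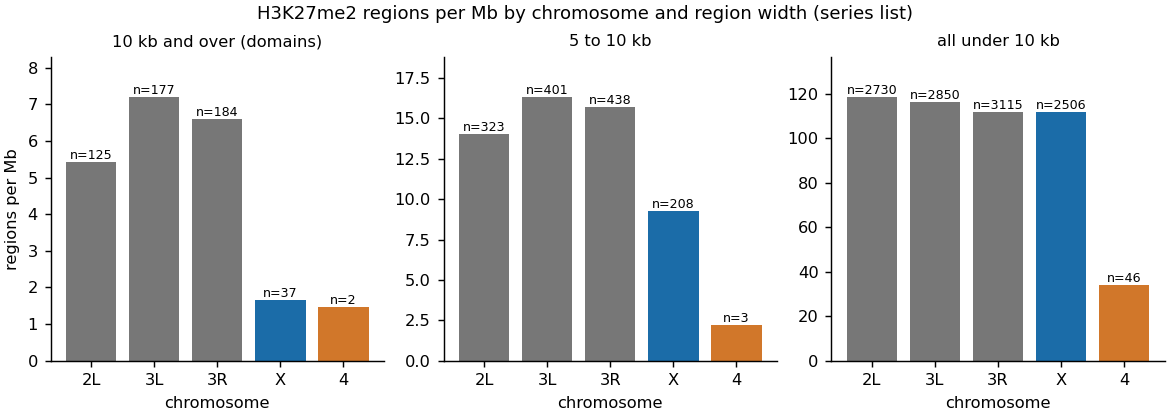
Regions per Mb of chromosome length (vertical axis) on 2L, 3L, 3R, X and 4, for domains of at least 10 kb (left), regions of 5 to 10 kb (middle) and all regions under 10 kb (right), with the number of regions above each bar. X stands level with the autosomal arms for shorter regions (112 against 115 per Mb) and far below them for domains (1.65 against 6.44 per Mb).

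The contrast between X and the autosomal arms depended on how regions were joined and on the width required. When regions closer than 1 kb were merged first, 1137 merged regions reached 10 kb and the density on X was 0.581 times the autosomal one. With a minimum of 15 kb it was 0.122 times. The replicates' own lists held only 65 and 45 regions of at least 10 kb on these chromosomes, so their values rest on few regions. There the density on X was 0.109 times the autosomal one in replicate 1, and replicate 2 held none on X. Read density moved with this result. The authors' score of a region is, from its values, log2 of a ratio of whole numbers less a constant, and the lower number is read here as input reads. Per kb of region this number had a median of 91.5 in the domains of X and 152 in those of the 3 autosomal arms, and of 82.5 and 146 in the shorter regions. Its part in the contrast was not tested.

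Domains of X were also narrower. Their median width was 11925 bp, with quartiles of 11218 and 13546 bp, against 13497 bp on 2L, 13851 bp on 3L and 13451 bp on 3R. Only 3 of the 37 reached 20 kb, while 85 of the 486 domains of the 3 autosomal arms did. These 3 were 22654 bp from 1189647 to 1212300, 22646 bp from 19111681 to 19134326, and 22094 bp from 1068110 to 1090203. Domains took 7.36% of the enriched bases of X, against 21.1% of those of 2L, 25.6% of those of 3L and 25.4% of those of 3R. The domains of chromosome 4 measured 14503 bp (772724 to 787226) and 12419 bp (13074 to 25492). The latter is the second highest-scoring of all 525 domains.

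On the autosomal arms the longest domains ran to many times the median width. On 3R they were 108653 bp from 27288888 to 27397540, 61399 bp from 25077643 to 25139041 and 51313 bp from 2083991 to 2135303. Replicates 1 and 2 covered the first to 78.9% and 79.1%, the second to 94.3% and 87.7% and the third to 57.1% and 54.0%. The third had the lowest score of these 3, 0.53, and a stretch of 3710 bp that neither replicate covered. On 3L the longest were 64941 bp from 6257841 to 6322781, 45848 bp from 16266218 to 16312065 and 44347 bp from 446607 to 490953. The replicates covered these to 59.7% and 70.5%, to 79.1% and 70.8%, and to 88.2% and 84.0%. On 2L they were 64710 bp from 22578853 to 22643562, 60009 bp from 626677 to 686685 and 48791 bp from 4485956 to 4534746. Their cover was 65.8% and 74.8%, 76.4% and 87.8%, and 89.4% and 75.5% in replicates 1 and 2. In all 9 of these autosomal domains both replicates covered more than 50% of the sequence.

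Cover of the 2 longest domains of X differed widely between the replicates. Replicates 1 and 2 covered the longest to 73.7% and 36.9%, and the next to 75.9% and 28.2%. The third longest, from 1068110, was covered to 49.1% and 55.9%. On chromosome 4 the domain from 772724 was covered to 59.0% and 51.0%, and the one from 13074 to 97.3% and 74.4%.

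Most domains were found in both replicates, mainly as several separate pieces. Replicate 1 overlapped 520 of the 525 domains and replicate 2 overlapped 521. Both overlapped 98.3% of the domains, against 80.7% of the regions of 5 to 10 kb and 26.2% of all regions on these chromosomes. Cover of at least 50% in both replicates was reached by 328 domains, or 62.5%, against 12.2% of all regions. A single replicate met that level in 159 domains, and 38 stayed below it in both. At 75% the share was 14.3%, against 2.84% of all regions. Longer regions are more likely to be touched by any list, so the overlap by 1 bp partly follows from their width.

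Replicate cover was graded by width over the whole list. The median cover in replicates 1 and 2 was 41.8% and 38.8% for regions of 2 to 5 kb, and 52.8% and 50.6% for those of 5 to 10 kb. It was 64.7% and 61.4% for domains of 10 to 15 kb, 71.1% and 69.7% for those of 15 to 20 kb, and 73.6% and 74.0% for those of 20 kb and over. Over all domains the medians were 68.3% and 65.6%, and the median of the replicate means was 65.9% (SD of the replicate medians 1.92, n = 2). The share covered to at least 50% in both replicates was 15.3%, 29.1%, 53.2%, 72.3% and 84.1% in the same order of widths. Regions under 2 kb had a median cover of 0% in each replicate, and 70.7% of them met no region of either. Their median width was 1399 bp, and the replicates' own lists hold no region shorter than 1301 bp. The part of this limit in the low cover was not tested. No domain was missed by both replicates, against 1.02% of the regions of 5 to 10 kb and 39.9% of all regions.

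**Figure D2:**
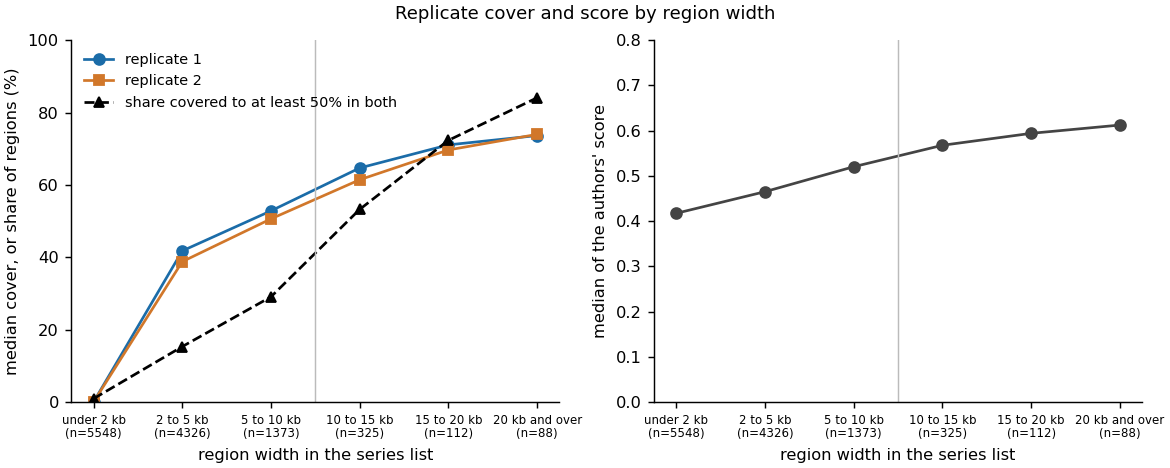
Left, median share of a region's bases covered by replicate 1 (circles) and replicate 2 (squares), and share of regions covered to at least 50% in both (triangles), by width class of the series' list. Right, median of the authors' score in the same classes. All measures are higher in each wider class, on both sides of the 10 kb threshold (vertical line), and the class medians of the replicates are close (52.8% and 50.6% at 5 to 10 kb, 73.6% and 74.0% at 20 kb and over), although single domains differ by a median of 15.1 percentage points.

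Counted by base, 46.1% of the domain sequence lay in both replicates, 40.1% in 1 of them and 13.7% in neither. For the shorter regions these shares were 15.0%, 41.5% and 43.4%. Domains took 31.7% of the sequence called in replicate 1 on these chromosomes and 33.6% of that called in replicate 2. The Jaccard index of the replicates, the bases in both divided by the bases in either, was 0.535 inside domains and 0.266 inside shorter regions. The shorter regions are a mix of widths, and those of 5 to 10 kb had 28.4% of their bases in both replicates.

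A typical domain was broken into 3 regions in each replicate (median 3 in both, at most 18). The widest replicate piece within a domain had a median length of 4881 bp in replicate 1 and 4534 bp in replicate 2. A single piece of at least 10 kb was present in 55 domains in replicate 1, in 40 in replicate 2 and in 17 in both. Breaks between pieces of the same replicate were short, with medians of 900 bp over 1073 breaks in replicate 1 and 844 bp over 1139 breaks in replicate 2, and 54.1% and 55.7% of them were under 1 kb. The longest stretch of a domain that neither replicate covered had a median of 1078 bp and reached 6209 bp.

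Inside domains, the bases found in both replicates were close to the product of the replicates' shares. Replicate 1 covered 66.7% of the domain bases and replicate 2 covered 65.7%. The product of the replicates' shares, taken domain by domain and added up, was 44.7% of the bases, and the bases found in both were 46.1%, a ratio of 1.03. On X the bases in both, 25.0%, were level with the product of 25.1%. For domains of at least 20 kb the values were 53.3% and 51.9%, and for regions of 5 to 10 kb 28.4% and 27.2%. The series' list holds nearly all replicate sequence, so sequence that neither replicate covers tends to fall outside domains. These values therefore cannot show whether the breaks of the replicates share their placement. How much of a domain each replicate covered was only loosely related, with a Spearman's rho of 0.218 across the 525 domains, which are not independent replicates.

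Pieces separated by short breaks were joined within each replicate to see whether the domains returned. With gaps of up to 2 kb joined, 149 domains (28.4%) were matched in both replicates, against 1.76% of all regions. A match was a joined region of at least 10 kb that covered at least 50% of the domain or region. A region under 10 kb can match only where the joined region runs beyond it, so the width rule lowers the share over all regions. The number of domains matched depends on the gap allowed, with 10.9% at 1 kb and 47.2% at 3 kb. By chromosome it was 33 of 125 on 2L, 52 of 177 on 3L, 61 of 184 on 3R, 2 of 37 on X and 1 of 2 on chromosome 4. With 1 replicate alone, replicate 2 returned 48.0% of the domains and replicate 1 returned 49.0%. All 65 and all 45 regions of at least 10 kb in the replicates' own lists touched a domain. This partly follows from the series' list, which holds nearly all replicate sequence. For the same reason, the return of domains in the replicates is no independent support for them.

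Cover changed over a short distance at the edges of domains. Within 500 bp outside an edge, replicate 1 covered 9.24% of bases and replicate 2 covered 6.93%. The first 500 bp inside were covered to 33.5% and 28.7%, and the stretch between 1500 and 2000 bp inside to 67.1% and 65.2%. From there to 5 kb inside, cover stayed between 65.5% and 70.2%. Outside it reached 30.5% and 31.1% at 2500 to 3000 bp from the edge, where 23.5% and 23.9% were found beside regions of 5 to 10 kb. The low value next to the edge follows from the series' list, which has no region there and holds nearly all replicate sequence.

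**Figure D3:**
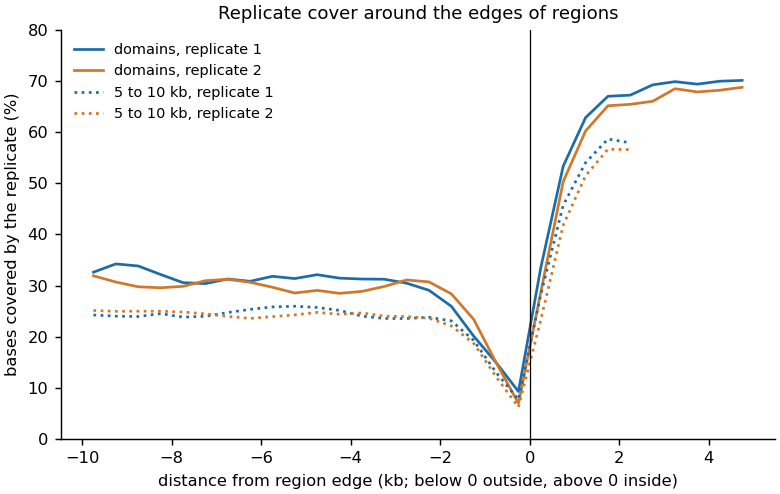
Share of bases covered by each replicate (vertical axis) in bins of 500 bp by distance from the edges of regions, with negative distances outside and positive ones inside, averaged over both edges of the 525 domains (solid) and of the regions of 5 to 10 kb (dotted). Cover is lowest just outside the edge (9.24% and 6.93% for domains), passes 60% by 1000 to 1500 bp inside domains and is then nearly level.

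The replicates disagreed most on X. There the median domain was covered to 73.4% in replicate 1 and to 38.5% in replicate 2. On 2L the medians were 65.6% and 68.7%, on 3L 68.0% and 67.2%, and on 3R 68.9% and 69.0%. Replicate 2 had the higher cover in 6 of the 37 domains of X and in 244 of the 486 on the 3 autosomal arms. Among all regions that either replicate overlapped, replicate 2 was higher in 46.9%, and among those of X in 32.3%. The median difference between the replicates, without regard to sign, was 32.3 percentage points on X and 14.3 on the autosomal arms. Cover of at least 50% in both was found for 9 of the 37 domains of X (24.3%), against 76 of 125 on 2L, 109 of 177 on 3L and 132 of 184 on 3R. Without X, the share of domains at that level was 65.4%.

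**Figure D4:**
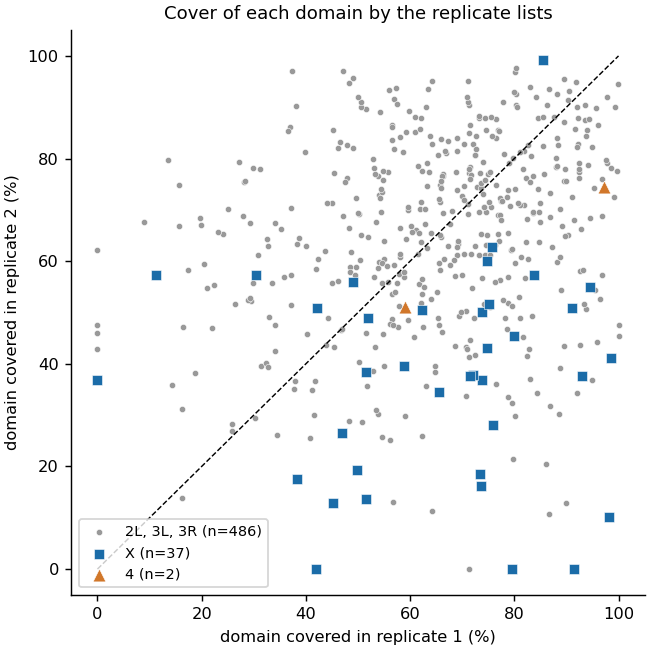
Share of each domain covered in replicate 1 (horizontal axis) and replicate 2 (vertical axis), 1 point per domain, for 2L, 3L and 3R (grey circles), X (blue squares) and chromosome 4 (orange triangles); the dashed line marks equal cover. Most domains of X lie below the line (31 of 37), while the autosomal domains lie on both sides (244 of 486 above).

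Among the 5 domains with the largest difference between the replicates, 3 were on X. The domain from 2092334 to 2104624 was covered to 91.5% in replicate 1 and touched by no region of replicate 2. That from 16591138 to 16604509 was covered to 98.1% and 10.1%, and that from 18597698 to 18608833 to 79.5% and 0%. The others were on 2L from 3757840 to 3768514 (89.9% and 12.9%) and on 3R from 23130405 to 23149755 (86.7% and 10.7%). All 5 were higher in replicate 1. In 29 domains the replicates differed by at least 50 percentage points, of which 7 were on X.

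At the other end were domains that the replicates called almost without a break. The domain on 2L from 18666068 to 18677137 was covered to 99.9% and 94.6%. Next came 3R from 21452948 to 21472510 (97.7% and 92.0%), 3R from 25947406 to 25958271 (99.3% and 90.0%), 3R from 20826254 to 20848746 (91.9% and 94.9%) and 3L from 9637507 to 9652481 (95.6% and 89.9%). Replicate 1 held the first 3 of these as 1 region each.

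The least supported domain was on 3R from 16018681 to 16029676, with 16.2% and 13.8%. The next 4 each lacked any region in 1 replicate. On X, the domain from 10447118 to 10457358 was covered to 36.8% in replicate 2 alone and that from 4137965 to 4150198 to 42.0% in replicate 1 alone. On 3R, those from 1866549 to 1878491 and from 7762116 to 7773068 were covered to 42.9% and 45.9% in replicate 2 alone. In all, 5 domains met no region of replicate 1 and 4 met none of replicate 2.

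Domains scored higher than shorter regions within the series' list. The median score was 0.58 in domains (quartiles 0.52 and 0.65) and 0.45 in shorter regions, a difference of 0.14 on the log2 scale. By width class it was 0.42 under 2 kb, 0.47 at 2 to 5 kb, 0.52 at 5 to 10 kb, 0.57 at 10 to 15 kb, 0.59 at 15 to 20 kb and 0.61 at 20 kb and over. Above the median score of the whole list, 0.47, lay 496 of the 525 domains (94.5%) and 43.9% of all regions. Among regions above that median alone, the difference was 0.058.

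The order held on each chromosome. Median scores of domains and of shorter regions were 0.58 and 0.43 on 2L, 0.58 and 0.43 on 3L, 0.58 and 0.43 on 3R, 0.66 and 0.54 on X, and 0.76 and 0.38 on chromosome 4, where there were only 2 domains. In each replicate's own list, the regions that touched a domain had median scores of 0.68 and 0.64, against 0.65 and 0.60 for the regions elsewhere. Their median widths were 2537 against 1853 bp in replicate 1 and 2417 against 1788 bp in replicate 2.

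Among the domains themselves, the rank correlation of score was higher with cover than with width. Spearman's rho across the 486 autosomal domains was 0.814 between score and mean cover and 0.290 between score and width, and across the 37 of X it was 0.849 and 0.177. These are descriptions over regions of the same libraries. The choice of domains cut width at 10 kb and set no limit on cover, so the correlations with width and with cover are not on equal terms.

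The 5 highest-scoring domains were between 10560 and 18100 bp wide. The top score, 1.03, was that of the 2L domain at 22757413 to 22768440, and the chromosome 4 domain at 13074 to 25492 followed with 1.01. A pair of 3L domains scored 0.92 (23288599 to 23306698) and 0.90 (24454022 to 24464581), and an X domain scored 0.89 (1326521 to 1337820). Cover of the first 4 ran from 70.4% to 98.6% in the replicates, and the one on X was covered to 98.5% and 41.2%. The domains on 2L and 3L lie towards the centromere.

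The lowest score, 0.40, was that of the 3R domain at 17498260 to 17508885. Scores of 0.42 belonged to 3L (18186595 to 18197256), 2L (10710792 to 10721121) and 3R (1866549 to 1878491), and 0.43 to 3R (10592673 to 10605869). All 5 were covered more in replicate 2 than in replicate 1, and 3 of them had no region in replicate 1. The median counting error of a domain's score was at most 0.043 on the log2 scale.

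Domains lay in company, much as regions of 5 to 10 kb did. The nearest region of any width was a median of 314 bp from a domain and 538 bp from a shorter region, a ratio of 0.584. Among the shorter regions the median was 396.5 bp for those of 5 to 10 kb and 630 bp for those under 2 kb. A neighbour within 1 kb was found for 398 domains (75.8%), 73.5% of the regions of 5 to 10 kb and 61.0% of those under 2 kb. Neighbours within 1 kb on both sides flanked 139 domains (26.5%), close to the 25.7% of the regions of 5 to 10 kb and above the 18.3% of those under 2 kb. No other region within 10 kb was found for 7 domains (1.33%), against 2.41% of the regions of 5 to 10 kb and 3.26% of those under 2 kb. With regions closer than 1 kb merged, the ratio of the medians was 0.848.

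Between one domain and the next the median distance was 66828 bp, over 520 neighbouring pairs. It was 80747 bp on 2L, 39775 bp on 3L, 70454 bp on 3R and 301114 bp on X. A next domain within 50 kb was found for 47 of 124 pairs on 2L, 96 of 176 on 3L, 84 of 183 on 3R and 8 of 36 on X. A median of 10 shorter regions lay between neighbouring domains on 2L, 5 on 3L, 8 on 3R and 31.5 on X. The longest distances were all on X and measured 3099581 bp (after the domain that ends at 11669439), 2856382 bp (after 6456644) and 2236327 bp (after 20038336).

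Some neighbouring domains were separated by a few bases only. On 3R, the domain from 10632591 to 10648938 and the domain from 10648939 to 10663846 abut with 0 bp between them. On 3L, 5 bp separate the domains that end at 4665222 and begin at 4665228, and 27 bp separate those that end at 4870006 and begin at 4870034. In 49 pairs the distance was under 1 kb and in 73 under 5 kb. Domains less than 5 kb apart formed 60 chains with 133 members, and 392 domains stood alone.

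The chains with most members held 4 domains each. They spanned 92709 bp on 3L from 446607 to 539315, of which 95.6% lay in domains, 66659 bp on 3R from 22841954 to 22908612 (86.3%) and 54392 bp on 2L from 19823772 to 19878163 (95.7%). The first opens with the third longest domain of 3L. On 2L, the 60009 bp domain from 626677 closes a pair that spans 82810 bp from 603876 to 686685, with 99.9% in domains.

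With each arm cut into 10 equal parts from the centromere end to the tip, domains took a larger share than shorter regions in the 2 parts at the tip of all 4 long arms. These parts held 22.4% of the domains and 20.3% of the shorter regions of 2L, 29.4% and 16.1% of those of 3L, 29.3% and 20.0% of those of 3R, and 37.8% and 20.4% of those of X. At the centromere end the arms differed. The 2 parts there held 26.4% of the domains and 16.8% of the shorter regions on 2L and 29.9% and 20.0% on 3L, but 14.7% and 19.0% on 3R and 13.5% and 23.3% on X. The last part at the tip of X alone held 12 of its 37 domains (32.4%) and 9.58% of its shorter regions. On 3L, the part next to the centromere held 32 domains and the part at the tip 28, and domains filled 19.5% and 19.1% of them, against 4.28% in the fifth part. On 3R, 124 of 184 domains (67.4%) lay in the 5 parts towards the tip, against 49.8% of the shorter regions. The last part of 3R held 31 domains (16.8%), which filled 20.8% of its sequence, and 8.60% of the shorter regions.

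**Figure D5:**
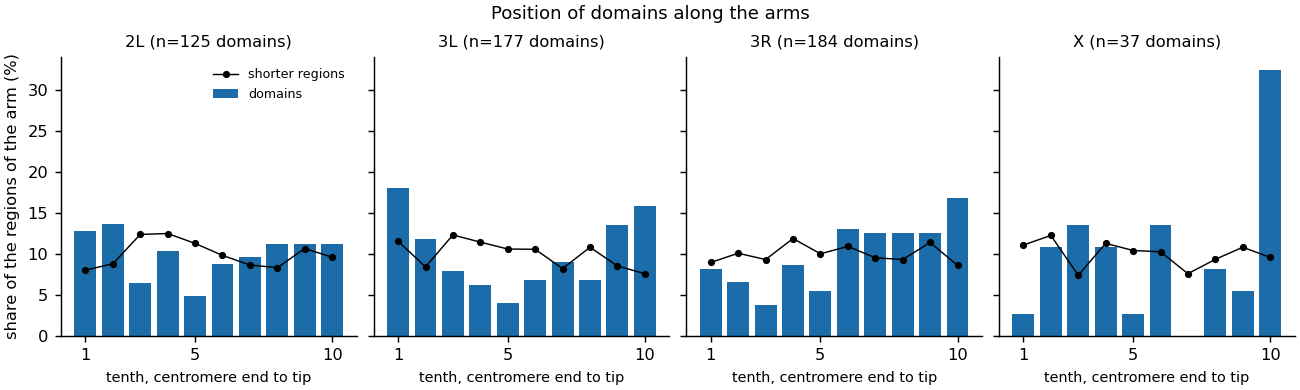
Share of the domains of an arm (bars) and of its shorter regions (line) in each of 10 equal parts from the centromere end (1) to the tip (10), for 2L, 3L, 3R and X. Domains are sparse in the middle of 3L (7 of 177 in part 5) and concentrated at the tip of X (12 of 37), where the shorter regions are not (9.58%).

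Over windows of 1 Mb, every window of 2L, 3L and 3R held a domain, and 6 of the 22 windows of X held none. The median window held 5 domains on 2L, 7.5 on 3L, 6 on 3R and 1 on X. The fullest windows were 2L from 4000001 to 5000000 with 12 domains that filled 21.8% of it, 3L from 2000001 to 3000000 with 14 (23.9%), 3R from 15000001 to 16000000 with 13 (24.2%) and X from 1000001 to 2000000 with 9 (13.4%). These windows also held 120, 121, 126 and 94 shorter regions, respectively. The only full window of chromosome 4, its first 1 Mb, held both of its domains and 37 shorter regions.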

How the data were processed

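H3K27me2 was measured by ChIP-seq in 2 ChIP samples with 2 inputs. Per the file headers, the 3 deposited lists (1 per ChIP replicate and 1 for the series) hold regions of significant enrichment on FlyBase release 5, with a score for each. Per the submitters' processing notes, Bowtie 0.12.7 was among the tools. For the caller of the regions, its threshold and the making of the series' list, the method is not given in the sources used here. The score deposited by the authors has no stated scale. Each score plus 1 constant per list (0.18 for the series' list) was log2 of a ratio of whole numbers in lowest terms, within a relative difference of 1e-11. As a reading that rests on the values alone, the numerator stands for ChIP reads and the denominator, the lower term, for input reads. True numbers are these or whole multiples, so terms per kb are lower limits and counting errors upper limits, for counting only. Library totals are unknown.

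Cover of a region is the percentage of its bases inside regions of a replicate's list. Distances are uncovered bases between regions. Scripts ran in Python 3.11.15 with NumPy 2.4.6, SciPy 1.17.1 and Matplotlib 3.10.9 and were tested on simulated lists. The members, lists and settings were chosen with earlier results of these data known. By rule, the named regions are the 3 longest domains of each chromosome, the 5 highest and 5 lowest by score and by mean cover, the 5 with the largest replicate difference, 3 regions on each side of the threshold, the 3 shortest and 3 longest distances and the fullest 1-Mb window of each chromosome. The chains of domains were chosen after their values were seen. Alternatives were other widths, merging of regions closer than 1 kb, a score minimum, a minimum width of shorter regions, omission of the proximal 2 Mb, other overlap and joining limits, and leaving out each replicate.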

Additional observations from a re-analysis of the deposited data

Results flagged for a closer look

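Regions of at least 10 kb also lay outside the 5 chromosomes described above. The series' list held 289 of them there, the longest of 40272 bp, and they were flagged because the comparisons do not use them. Arm 2R, which the rule leaves out, held 163 of them (7.71 per Mb). The pericentric scaffolds held 33 on 2RHet, 32 on 3LHet, 34 on 3RHet, 3 on XHet and 1 on 2LHet, and unplaced sequence U held 23. No explanation was tested for them.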

How the results depend on the processing

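No paired analysis was possible because only the ChIP samples have a list, so that an input of the same number has nothing to be paired with. Of 90 recomputed values, 43 stayed within the spread allowed, 47 moved beyond it and none changed sign, and the cause was not tested. That spread was 1.5-fold for the number of domains and the Jaccard index. For shares of domains it was a 95% exact interval, which treats domains as independent, and otherwise the SD of the 2 replicates. This SD can be wide. For the median distance between domains (66828 bp) it was 342297 bp, so 181804 bp at 15 kb counted as unmoved. The omission of X was added after seeing the data. With minimum widths of 8, 15 and 20 kb, domains numbered 846, 200 and 88, held 28.7%, 11.4% and 6.54% of enriched bases and were covered to 63.1%, 71.4% and 72.2%. Their density on X was 0.362, 0.122 and 0.119 times the autosomal one, and 53.7%, 77.5% and 84.1% were covered to 50% in both replicates. At 15 and 20 kb, cover exceeded that of shorter regions by 42.7 and 42.8 percentage points (38.7 at 10 kb), the input term per kb was 1.39 and 1.40 times that of shorter regions (1.37), and at 20 kb the median distance between domains was 565968 bp. Merging regions closer than 1 kb gave 1137 domains with 53.8% of enriched bases, a density ratio of 0.581, a cover of 44.4% (22.3 points above shorter regions), 25.9% at 50% in both replicates, 9.15% recurring as joined regions and a gap ratio of 0.848. Scores above the median gave 33.2% of bases, 26.1 points of cover, a score difference of 0.058, a gap ratio of 0.732 and an input ratio of 1.63. Shorter regions at least as wide as the shortest replicate region gave 30.2 points, 0.632 and 1.34. All these input ratios pool the 5 chromosomes, and X held 37 of the 525 domains but 2506 of the 11247 shorter regions. At 10 kb, the median input terms per kb of domains and shorter regions were 152 and 146 on the 3 autosomal arms. On X they were 91.5 and 82.5, and on chromosome 4, with 2 domains, 52.6 and 150. Of the domains, 98.3% were overlapped by both replicates and 14.3% were covered to 75% in both (2.84% of all regions). Joining gaps of 1 and 3 kb returned 10.9% and 47.2% of domains. With 1 replicate left out, cover was 65.6 to 68.3%, as was its excess over shorter regions, whose median is 0 in a single replicate, 76.8 to 78.5% of domains reached 50%, and 48.0 to 49.0% recurred. Depth limits cannot be set, since the lists give no library totals.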
